A study of Mus musculus with 12 samples.

Results

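T-bet, Eomes, BLIMP-1 and Hobit are 4 transcription factors that direct how a CD8 T cell becomes an effector, a memory cell, a tissue-resident cell or an exhausted cell. Their genes, Tbx21, Eomes, Prdm1 and Zfp683, were chosen by name, with earlier results of these data known, and make up 4 of the 55401 gene identifiers counted in these libraries. The counts came from 12 RNA-seq libraries of bulk OT-I T cells from mice, 3 in each of 4 groups. All 4 groups share the OT-I genotype, a transgenic receptor that recognises an ovalbumin peptide, so none of them has the receptor variety of an ordinary T cell response. Naive cells were taken from the lymph nodes of OT-I mice that had no tumour. Effector cells were made in culture, over 5 days of stimulation with antigen, and never saw a tumour. The cells called exhausted in the labels had been transferred into C57Bl6/J mice with B78ChOVA melanomas, an ovalbumin-carrying tumour line, and were sorted from the tumours as CD44+ OT-I cells at day 4 or day 14 after transfer. The hosts were not described as lacking T cells of their own, and the labels give neither the animals' age nor the state of the OT-I cells at transfer. Culture and tumour therefore differ in place as well as in time, and the place and the time cannot be told apart between the effector group and the tumour groups. The labels do not say whether the 3 libraries of a group came from separate animals or cultures, so p-values measure only the spread between these libraries.

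T-bet and Eomes belong to the T-box family, bind related DNA sequences and share many target genes, among them those for interferon gamma, perforin, granzymes and the beta chain of the interleukin 2 and 15 receptors. In CD8 T cells T-bet is induced by antigen, interleukin 12 and interferon gamma and is tied to effector differentiation, whereas Eomes is tied to memory cells and, at high levels, to cells in late exhaustion. BLIMP-1, the product of Prdm1, is a zinc-finger repressor that ends the germinal centre programme in B cells and drives effector differentiation in T cells, and high levels are known from exhausted cells in chronic infection. It opposes Bcl6, Tcf7 and Bach2, factors of follicular, stem-like and resting lymphocytes. Hobit, the product of Zfp683, is a close relative of BLIMP-1 that acts with it to keep T cells resident in tissues.

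All 4 genes are annotated as protein coding in GENCODE M21 on GRCm38. Tbx21 (ENSMUSG00000001444.2) lies on the minus strand of chromosome 11 from 97098071 to 97115331, with 2488 exon bases. Eomes (ENSMUSG00000032446.14) lies on the plus strand of chromosome 9 from 118478212 to 118486132, with 4155 exon bases. Prdm1 (ENSMUSG00000038151.13) lies on the minus strand of chromosome 10 from 44437177 to 44528501, with 5579 exon bases, and Zfp683 (ENSMUSG00000049410.8) on the plus strand of chromosome 4 from 134053838 to 134058996, with 1471. Eomes shares 118 exon bases with the antisense gene Gm33460, and the sources used here do not give how reads in such an overlap were assigned. The unstranded counts of Eomes were 8.89% fewer than the sum of its counts on both strands (3.88% to 10.7% by library). For the other 3 genes the unstranded counts equalled that sum. Whether the overlap accounts for the difference was not tested.

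The sequences just upstream of the start sites show where the members differ in base composition and give the DNA on which the factors' own families could be searched. The RefSeq promoter table for GRCm38.p6 held 3 of the 4 members. The 250 bases before the start are printed 5′ to 3′ in the direction of transcription, with no letters in capitals because neither motif searched fell within them. They lie at chr11:97115332-97115581 (minus strand) for Tbx21, chr9:118477939-118478188 (plus strand) for Eomes and chr10:44458749-44458998 (minus strand) for Prdm1, whose RefSeq start lies inside the longer GENCODE gene span.
Tbx21: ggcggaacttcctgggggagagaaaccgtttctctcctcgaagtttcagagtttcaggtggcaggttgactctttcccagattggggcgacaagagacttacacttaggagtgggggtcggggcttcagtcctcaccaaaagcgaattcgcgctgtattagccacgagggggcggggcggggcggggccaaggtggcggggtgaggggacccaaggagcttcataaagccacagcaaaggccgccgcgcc
Eomes: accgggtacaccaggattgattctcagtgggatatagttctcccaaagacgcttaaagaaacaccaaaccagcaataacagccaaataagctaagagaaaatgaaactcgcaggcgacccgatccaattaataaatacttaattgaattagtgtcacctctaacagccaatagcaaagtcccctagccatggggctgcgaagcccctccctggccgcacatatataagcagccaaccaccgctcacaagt
Prdm1: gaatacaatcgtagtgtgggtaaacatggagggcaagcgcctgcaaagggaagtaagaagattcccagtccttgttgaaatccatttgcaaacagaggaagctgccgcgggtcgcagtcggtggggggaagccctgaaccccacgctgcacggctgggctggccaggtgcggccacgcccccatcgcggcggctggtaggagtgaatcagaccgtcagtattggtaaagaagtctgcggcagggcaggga
GC content was 60.8% for Tbx21, 46.4% for Eomes and 59.2% for Prdm1, against a median of 52.4% over all 32851 promoters of the table. A BLIMP-1 type motif (AGNGAAAG) and a T-box type motif (TCACACNT) were searched on both strands of the 300-base window from 250 before to 50 after each start. The first occurred in 8.63% and the second in 3.45% of all promoters. Among the members, 1 match was found, AGAGAAAG at bases 22 to 29 after the Tbx21 start on the coding strand, and a match of letters is not a measured binding site.

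Gene counts per library ranged from 11937053 to 17094006 with a median of 14136187. Levels are given as CPM, counts divided by library totals that were adjusted with TMM factors, and group levels as mean ± SD over 3 libraries. A gene is said to be called where its adjusted p was under 0.05. The 8 CD8 T cell markers were detected in every library, with a summed level of 2949 to 5665 CPM and Cd8a, a chain of the CD8 co-receptor, the most abundant. Melanoma markers summed to 26.2 to 42.4 CPM in naive and effector libraries and to 425 to 1656 CPM in tumour libraries, where all 8 were detected and Dct was the most abundant. Macrophage and monocyte markers summed to 14.5 to 27.5 CPM in naive and 6.18 to 10.1 CPM in effector libraries, and to 64.8 to 134 CPM at day 4 and 67.4 to 121 CPM at day 14, with Apoe the most abundant in tumour and Cd68 in naive and effector cells by their summed counts. Dendritic cell markers summed to 6.80 to 21.3 CPM in naive and effector libraries and to 49.1 to 82.1 CPM in tumour libraries, where Zbtb46 lay between 16.1 and 44.3 CPM. Fibroblast and endothelial markers summed to 177 to 199 CPM in naive and effector and 59.2 to 96.1 CPM in tumour libraries. Pecam1, which T cells also express, made up most of these sums and was lower in tumour than in naive cells, at 41.2 to 55.9 CPM at day 14 against 177 to 197 CPM. Col3a1 and Col1a2, collagen genes of fibroblasts, were called higher in tumour than in naive cells. Col3a1 had 2 counts over the naive, 187 over the day 4 and 200 over the day 14 libraries. Col1a2 had 0, 107 and 130 counts in that order, and Col3a1 ran from 0.293 to 10.6 CPM within day 4. The other tested genes of this list did not all follow. Against naive cells, Col1a1 was called higher at day 14 (log2 fold change 2.35) and not called at day 4 (1.11). Pdgfrb was called lower than in naive cells at day 4 (log2 fold change -2.41) and not called at day 14 (-0.35). Markers of CD4 T cells and Tregs summed to 4.61 to 16.7 CPM, and within them Cd4 was called higher in tumour than in naive cells (log2 fold change 2.79 at day 4 and 3.19 at day 14) and Cd40lg lower (-3.43 and -2.98). The part of these other cells in any result was not tested. Lower transcript levels in bulk libraries can mean fewer cells of a type or less RNA per cell, and these cannot be told apart.

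Because natural killer cells express Tbx21 and Eomes, and plasma cells and macrophages express Prdm1, the markers of these cells were set beside the members. NK cell markers summed to 2.06 to 6.68 CPM in naive and 9.63 to 15.9 in effector libraries, and to 26.6 to 37.6 at day 4 and 11.7 to 25.2 at day 14. Between 3 and 5 of the 8 markers were at 0 in naive and in effector libraries, 1 to 4 at day 4 and 3 at day 14. The 3 tested markers were Klrb1f and Klre1, lectin-like receptors, and Fcer1g, a signalling chain. Klrb1f was higher than in naive cells by a log2 fold change of 3.04 at day 4 and 1.69 at day 14, and Klre1 by 5.84 and 5.86. Fcer1g was called higher at day 14 (2.42) and not at day 4 (1.34, edgeR adjusted p = 0.0888). Ncr1, the defining NK receptor, had 0 counts in naive, effector and day 4 libraries and 1 count in the day 14 libraries. B and plasma cell markers, led by Ighd, summed to 112 to 151 CPM in naive and 27.2 to 32.4 in effector libraries, and to 46.2 to 47.2 at day 4 and 11.5 to 17.1 at day 14. Sdc1, the syndecan of plasma cells, which other cells express too, had 102 counts over the day 4 and 89 over the day 14 libraries, against 1 over the naive and 0 over the effector libraries. The part of NK, B and plasma cells in the levels of the members was not tested.

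Tbx21, which encodes T-bet, was lowest in naive cells and highest at day 14. It measured 3.10, 4.45 and 1.83 CPM in the naive libraries and 9.98, 22.4 and 20.3 CPM in the effector libraries. The day 4 libraries held 25.9, 33.3 and 39.6 CPM and the day 14 libraries 56.8, 60.9 and 48.0 CPM. No library of any group overlapped with those of another group, so the order naive, effector, day 4, day 14 held in all 12 libraries. For Tbx21 and the other members, the share of all genes whose libraries separate between groups was not counted. Group means were 3.13 ± 1.31, 17.6 ± 6.66, 32.9 ± 6.86 and 55.2 ± 6.61 CPM (SD, n = 3 each).

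Tbx21 was 5.60-fold higher in effector than in naive cells (edgeR log2 fold change 2.49 ± 0.34 SE, adjusted p = 0.000223). It was 10.5-fold higher at day 4 (log2 fold change 3.40 ± 0.34 SE) and 17.6-fold higher at day 14 than in naive cells (edgeR log2 fold change 4.14 ± 0.35 SE, adjusted p = 4.53e-07). Against effector cells it was 1.88-fold higher at day 4 (edgeR log2 fold change 0.91 ± 0.29 SE, adjusted p = 0.0167) and 3.15-fold higher at day 14 (edgeR log2 fold change 1.66 ± 0.30 SE, adjusted p = 0.000354). Between the tumour groups, day 14 was 1.68-fold above day 4 with an interval on the log2 scale from 0.13 to 1.36, and the difference was not called (edgeR adjusted p = 0.121). This last comparison changed with the method, since DESeq2 (adjusted p = 0.0462), limma-voom (adjusted p = 0.0154), edgeR with no filter (adjusted p = 0.000384) or with the compared groups alone (adjusted p = 0.00681), and edgeR without effector replicate 1 (adjusted p = 0.0323) called it (range over 20 alternatives 0.000384 to 0.341). The day 4 versus effector call was lost with counts of 1 strand (edgeR adjusted p = 0.0555) and without day 4 replicate 3 (edgeR adjusted p = 0.0515), range over alternatives 3.52e-07 to 0.0555.

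**Figure D1:**
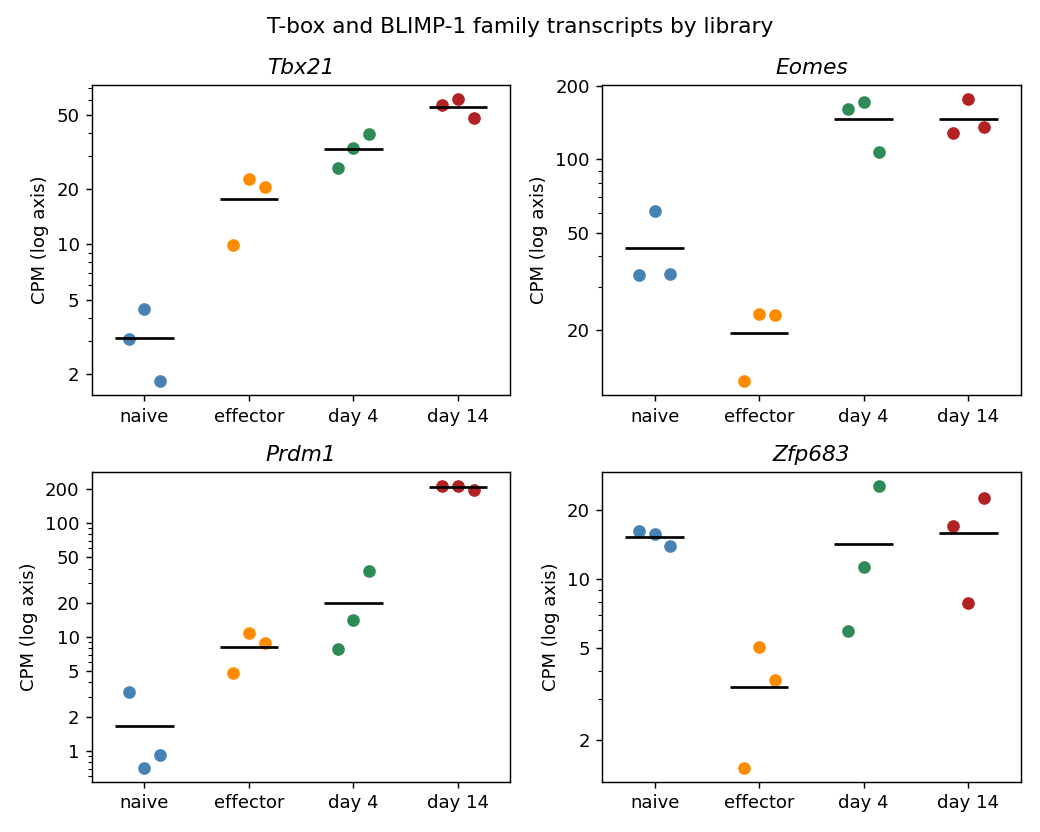
Level of Tbx21, Eomes, Prdm1 and Zfp683 in each of the 12 libraries, in CPM on a log axis, by group. Points are libraries in the order of replicates 1 to 3 and black lines are group means of 3 libraries. Prdm1 lay between 195 and 213 CPM at day 14, above all other libraries, and Eomes was lowest in the effector libraries.

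Eomes, the other T-box factor of cytotoxic lymphocytes, took a different course and was lowest in the cultured effector cells. The naive libraries held 33.6, 61.7 and 34.0 CPM and the effector libraries 12.4, 23.1 and 23.0 CPM. In tumours it measured 162, 172 and 107 CPM at day 4 and 128, 177 and 136 CPM at day 14. All effector libraries lay below all naive libraries, and both lay below all tumour libraries, while day 4 and day 14 overlapped. Group means were 43.1 ± 16.1 CPM in naive, 19.5 ± 6.17 in effector, 147 ± 34.9 at day 4 and 147 ± 26.2 at day 14 (SD, n = 3 each).

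Eomes was 2.22-fold lower in effector than in naive cells (edgeR log2 fold change -1.15 ± 0.33 SE, adjusted p = 0.0308). At day 4 it was 3.41-fold above naive cells (edgeR log2 fold change 1.77 ± 0.32 SE, adjusted p = 0.000872) and 7.57-fold above effector cells (edgeR log2 fold change 2.92 ± 0.34 SE, adjusted p = 4.17e-05). The day 14 values were close to these, at log2 fold changes of 1.77 (SE 0.32) against naive and 2.92 (SE 0.34) against effector cells. Day 14 and day 4 differed by a log2 fold change of 0.0009, with a 95% interval from -0.69 to 0.69, which leaves room for differences of that size in either direction. The fall from naive to effector cells was not called without naive replicate 2 (log2 fold change -0.80, edgeR adjusted p = 0.0844), without effector replicates 1, 2 or 3 (edgeR adjusted p = 0.0653, 0.0563 and 0.0522), without day 14 replicate 3 (edgeR adjusted p = 0.0508) or with all genes kept in the fit (edgeR adjusted p = 0.0753), range over 20 alternatives 0.00365 to 0.0844.

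The balance of the 2 T-box genes was compared per kilobase of exon, since read counts rise with transcript length. Counts per kilobase of Eomes over those of Tbx21 were 6.43, 8.23 and 10.9 in the naive libraries and 0.740, 0.617 and 0.676 in the effector libraries. They were 3.74, 3.09 and 1.62 at day 4 and 1.35, 1.74 and 1.70 at day 14. Tbx21 was thus ahead of Eomes per kilobase in 3 of 3 effector libraries and behind it in the other 9 libraries. Only day 4 and day 14 overlapped, because day 4 replicate 3 fell among the day 14 values.

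As a log2 ratio of counts, not corrected for length, Eomes over Tbx21 averaged 3.80 ± 0.38 for naive, 0.17 ± 0.13 for effector, 2.15 ± 0.63 for day 4 and 1.40 ± 0.20 for day 14 libraries (SD, n = 3 each). The log2 ratio was 3.62 lower in effector than in naive cells as the difference of these means, and it was higher than in effector cells by 1.97 at day 4 and 1.23 at day 14. In these 3 comparisons, and in those of day 4 and day 14 with naive cells, the groups did not overlap, and a two-sided exact permutation test gave p = 0.1, the smallest that 3 against 3 libraries allow (adjusted p = 0.12 over 6 comparisons). Day 14 and day 4 differed by -0.74 with overlapping libraries (exact permutation p = 0.3).

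**Figure D2:**
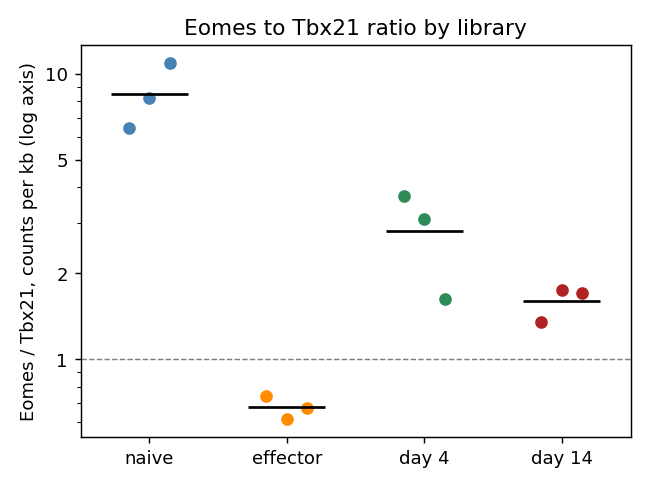
Ratio of Eomes to Tbx21 counts per kilobase of exon in each of the 12 libraries, on a log axis, by group. Points are libraries, black lines are means of 3 libraries and the dashed line marks equal levels. The effector libraries lie between 0.617 and 0.740, below the line, and all others lie above it.

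Prdm1, which encodes BLIMP-1, was the member with the widest range and the only 1 of the 4 called between the tumour groups. The naive libraries held 3.32, 0.716 and 0.917 CPM, from 45, 9 and 12 counts, and the effector libraries 4.88, 10.8 and 8.96 CPM. Day 4 libraries spread from 7.84 over 14.0 to 37.8 CPM, with replicate 3 highest. The day 14 libraries held 213, 211 and 195 CPM and were the tightest group, each more than all libraries of the other groups. Group means were 1.65 ± 1.45 CPM in naive, 8.23 ± 3.04 in effector, 19.9 ± 15.8 at day 4 and 206 ± 9.78 at day 14 (SD, n = 3 each). The highest day 4 library was 4.83-fold the lowest, whereas the highest day 14 library was 1.09-fold the lowest.

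Prdm1 was 10.3-fold higher at day 14 than at day 4 (edgeR log2 fold change 3.37 ± 0.59 SE, adjusted p = 0.00688), rank 113 of 16426 tested genes by size of the log2 fold change. It was 123-fold above naive cells (edgeR log2 fold change 6.94 ± 0.76 SE, adjusted p = 5.7e-05) and 25.3-fold above effector cells at day 14 (edgeR log2 fold change 4.66 ± 0.64 SE, adjusted p = 0.000252). At day 4 it was 11.8-fold above naive cells (edgeR log2 fold change 3.57 ± 0.75 SE, adjusted p = 0.00299). The effector libraries were all above the naive ones, at a log2 fold change of 2.28 (SE 0.80) that was not called (edgeR adjusted p = 0.0719), and day 4 overlapped with effector cells (edgeR log2 fold change 1.29 ± 0.61 SE, adjusted p = 0.0994).

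Single libraries moved several of these Prdm1 values. Without day 4 replicate 3 the log2 fold change of day 14 over day 4 was 4.21, that of day 4 over naive cells was 2.73, and that of day 4 over effector cells was 0.48. Without naive replicate 1 the log2 fold changes over naive cells were 3.30 in effector, 4.60 in day 4 and 7.97 in day 14 cells. The effector versus naive difference was called by DESeq2 (adjusted p = 0.00612), by edgeR with those groups alone (adjusted p = 0.0140) and without day 4 replicate 1 (adjusted p = 0.0421) or 3 (adjusted p = 0.0203), range over 20 alternatives 0.00612 to 0.19. The day 4 versus effector difference was called without day 4 replicate 1 (log2 fold change 1.68, edgeR adjusted p = 0.0310), range over alternatives 0.0310 to 0.419. The rise from day 4 to day 14 was called under all 20 alternatives, with adjusted p from 1.83e-06 to 0.0389.

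Day 4 replicate 3, the library with the most Prdm1 of its group, also had the most Zfp683 and Tbx21 and the least Eomes. Its macrophage and monocyte markers summed to 134 CPM, against 69.6 and 64.8 CPM in replicates 1 and 2, with 0 of 12 at 0, and its melanoma markers to 686 CPM, against 1029 and 955 CPM. The part of these cells in its Prdm1 level was not tested. At day 14 the macrophage and monocyte sum was 67.4 to 121 CPM. Dendritic cell markers summed to 49.1 to 80.9 CPM at day 4 and 60.0 to 82.1 CPM at day 14. Of their 6 tested genes 0 were called higher at day 14 and 1 lower, Zbtb46 (35.9 and 20.1 CPM). H2-Ab1 averaged 14.7 and 30.4 CPM (edgeR adjusted p = 0.201) and Xcr1 4.70 and 11.2 CPM (edgeR adjusted p = 0.0738). Their libraries did not overlap, but the share of all genes without overlap was not counted. The other tested genes, Flt3, Itgax and Ccl22, had overlapping libraries and log2 fold changes of 0.23, -0.094 and -0.046. The part of these cells in the day 14 Prdm1 level was not tested.

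Zfp683, which encodes Hobit, was lowest in the effector cells, and its naive level lay within the spread of the tumour libraries. It measured 16.2, 15.7 and 14.0 CPM in naive and 1.51, 5.07 and 3.63 CPM in effector libraries. The day 4 libraries held 5.93, 11.3 and 25.6 CPM and the day 14 libraries 17.1, 7.93 and 22.7 CPM. The effector libraries lay below all 9 others, and the 3 naive libraries sat close together among the widely spread tumour libraries. Group means were 15.3 ± 1.18 CPM in naive, 3.40 ± 1.79 in effector, 14.3 ± 10.2 at day 4 and 15.9 ± 7.47 at day 14 (SD, n = 3 each).

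Zfp683 was 4.55-fold lower in effector than in naive cells (edgeR log2 fold change -2.18 ± 0.61 SE, adjusted p = 0.0253). Against effector cells it was 4.25-fold higher at day 4 (edgeR log2 fold change 2.09 ± 0.61 SE, adjusted p = 0.0123) and 4.72-fold higher at day 14 (edgeR log2 fold change 2.24 ± 0.60 SE, adjusted p = 0.00871). The differences of day 4 from naive (log2 fold change -0.098, 95% interval -1.32 to 1.12), day 14 from naive (0.053, -1.16 to 1.27) and day 14 from day 4 (0.15, -1.06 to 1.36) were not called, with intervals that reach past a 2-fold difference in both directions. The effector versus naive call was lost without naive replicates 1, 2 or 3 (edgeR adjusted p = 0.0669, 0.0631 and 0.0538), without effector replicates 1 or 3 (edgeR adjusted p = 0.0732 and 0.0767) and with no filter (edgeR adjusted p = 0.0732), range over 20 alternatives 0.000621 to 0.0767. Without day 4 replicate 3 the log2 fold changes were -0.80 for day 4 over naive, 1.42 for day 4 over effector and 0.86 for day 14 over day 4.

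**Figure D3:**
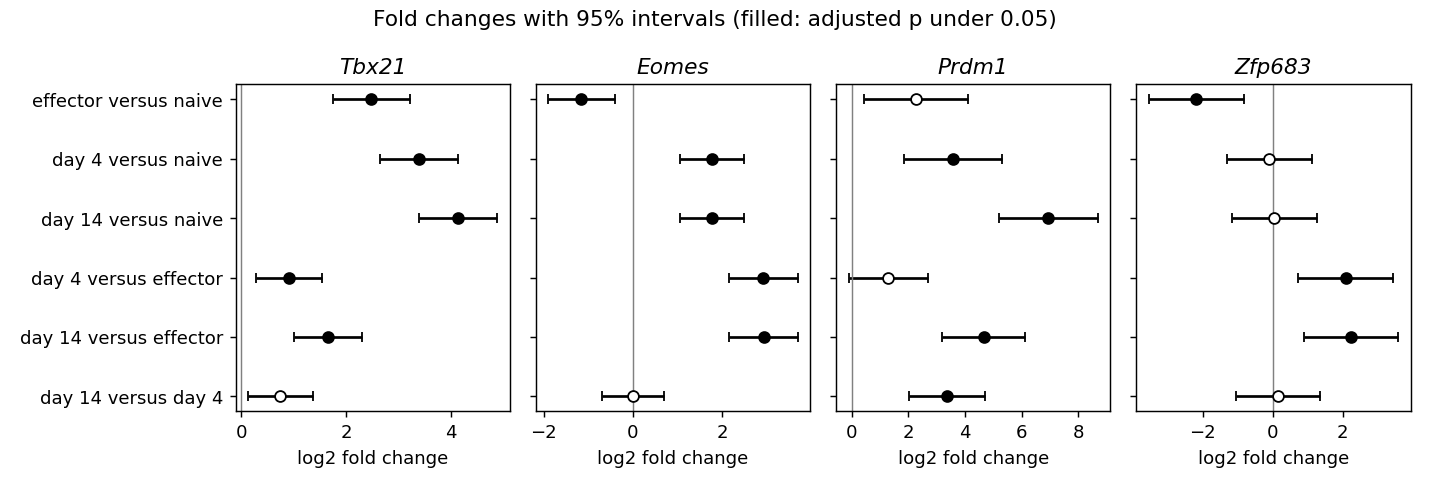
Log2 fold changes of the 4 genes in the 6 comparisons of groups, with 95% intervals from the edgeR fit. Filled points passed an adjusted p of 0.05 and open points did not. Prdm1 is the only gene with a filled point for day 14 versus day 4, at 3.37.

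Across the 4 members the calls stood beside those of all genes as follows, and comparisons that share a group are not independent of each other. In effector versus naive cells 1 member was higher and 2 were lower, where 14.6% of 16426 tested genes were higher and 10.4% lower. With total counts in place of TMM factors that split of all genes moved from 2395 higher and 1703 lower to 1544 higher and 2508 lower, as the median log2 fold change of all genes shifted from 0.015 to -0.10, and the 3 members were called in the same directions. In day 4 versus naive cells 3 members were higher and 0 lower by edgeR (all genes 33.4% and 28.8%), and in day 14 versus naive cells the same counts were found (all genes 33.6% and 28.5%). Against effector cells 3 members were higher at day 4 (all genes 32.7%, with 29.2% lower) and 4 were higher at day 14 (all genes 32.6%, with 28.4% lower). From day 4 to day 14, 1 member was higher and 0 lower, where 7.17% of genes were higher and 4.91% lower, and at an unadjusted p under 0.05 by edgeR, by DESeq2 or by limma-voom 2 members were higher. Of all genes DESeq2 called 1389 higher and 1051 lower there, and limma-voom 1337 and 998. The share of all genes at the unadjusted p was not counted. In the 5 comparisons with 0 members lower, 0 were lower by these other rules too. A test over all 4 groups called each member (edgeR adjusted p = 1.72e-06 for Tbx21, 5.23e-05 for Prdm1, 5.98e-05 for Eomes and 0.0267 for Zfp683). By p the members ranked 3188, 5482, 5601 and 11558 of 16426 tested genes in the same order. The test thus called most genes, and a call by it does not set the members apart.

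Levels of different genes can be compared only per length. In CPM per kilobase of exon, naive cells held 10.4 ± 0.801 of Zfp683, 10.4 ± 3.88 of Eomes, 1.26 ± 0.526 of Tbx21 and 0.296 ± 0.260 of Prdm1 (SD, n = 3 each). In effector cells the order was Tbx21 with 7.07 ± 2.68, Eomes with 4.69 ± 1.48, Zfp683 with 2.31 ± 1.22 and Prdm1 with 1.47 ± 0.545 CPM per kilobase. Day 4 cells held 35.4 ± 8.39 of Eomes, 13.2 ± 2.76 of Tbx21, 9.72 ± 6.92 of Zfp683 and 3.57 ± 2.84 of Prdm1. At day 14 Prdm1 with 37.0 ± 1.75 and Eomes with 35.4 ± 6.31 were level within their spread, ahead of Tbx21 with 22.2 ± 2.66 and Zfp683 with 10.8 ± 5.08 CPM per kilobase. Prdm1 thus went from the lowest of the 4 genes in the other groups to one of the highest at day 14. Exon length here is that of all annotated exons of a gene, and which isoforms the cells used was not measured.

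The factors that oppose BLIMP-1 were read beside Prdm1. Bcl6, the follicular T cell and germinal centre repressor, averaged 21.3 ± 3.57 CPM in naive, 42.2 ± 3.93 in effector, 140 ± 17.0 at day 4 and 41.4 ± 11.6 at day 14 (SD, n = 3 each). It therefore peaked at day 4, above naive cells by a log2 fold change of 2.71 (SE 0.20), and fell from day 4 to day 14 by 1.76 on the log2 scale (SE 0.19, edgeR adjusted p = 4.63e-05). Tcf7, the factor of naive and stem-like T cells, averaged 1181 ± 65.3, 1777 ± 73.9, 252 ± 8.51 and 62.1 ± 36.4 CPM in the same order of groups. It fell from day 4 to day 14 by 2.02 on the log2 scale (SE 0.33, edgeR adjusted p = 0.00417), and by 2.63 without day 14 replicate 3, which held 104 CPM against 45.9 and 36.6 in the other two.

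Bach2, a repressor that keeps lymphocytes from effector differentiation, averaged 161 ± 5.69 CPM in naive, 202 ± 25.9 in effector, 67.6 ± 5.62 at day 4 and 13.3 ± 4.93 at day 14. It fell from day 4 to day 14 by 2.35 on the log2 scale (SE 0.22, edgeR adjusted p = 3.58e-05). Bcl6, Tcf7 and Bach2 each had all day 14 libraries below all day 4 libraries. All Prdm1 values at day 14 lay above those at day 4. The share of all genes whose libraries separate in this way was not counted. Whether the separation sets these genes apart was therefore not tested. By edgeR 4.91% of all genes were called lower and 7.17% higher at day 14 than at day 4. In effector versus naive cells Tcf7 (log2 fold change 0.59, edgeR adjusted p = 0.215, range over alternatives 9.75e-05 to 0.416) and Bach2 (log2 fold change 0.33, edgeR adjusted p = 0.257, range 0.0480 to 0.552) were not called.

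**Figure D4:**
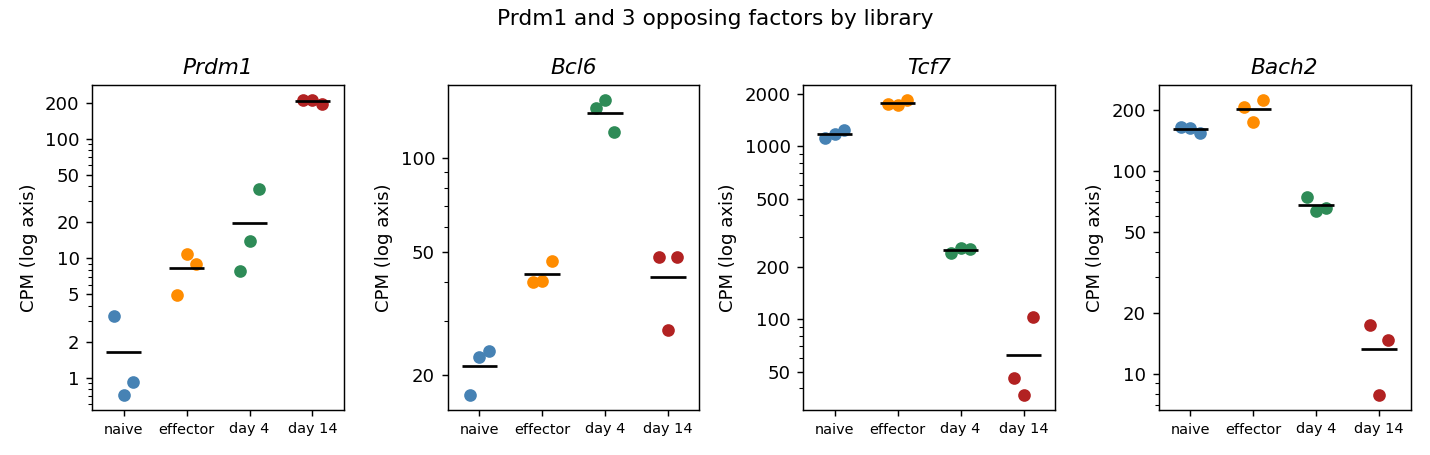
Levels of Prdm1 and of Bcl6, Tcf7 and Bach2 in each of the 12 libraries, in CPM on a log axis, by group. Points are libraries and black lines are means of 3 libraries. From day 4 to day 14 Prdm1 rises from a mean of 19.9 to 206 CPM, and Bcl6, Tcf7 and Bach2 fall by 1.76, 2.02 and 2.35 on the log2 scale.

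Genes that induce or restrain the 4 factors were read as a list of 30, of which all were tested. In effector versus naive cells 12 were higher and 5 lower (14.6% and 10.4% of all genes), with a median log2 fold change of 0.39 against 0.015 over all genes. Il2ra, the alpha chain of the interleukin 2 receptor, rose from 1.46 ± 0.438 to 160 ± 51.8 CPM (edgeR log2 fold change 6.77 ± 0.39 SE, adjusted p = 2.2e-06). Il12rb2, the signalling chain of the interleukin 12 receptor, rose by a log2 fold change of 3.59 (SE 0.38), and Irf4, a factor induced by the T cell receptor, by 2.72 (SE 0.37), or 3.42 without naive replicate 2. At day 4 versus naive cells 14 were higher and 11 lower (33.4% and 28.8% of all genes, median 0.17 against 0.029 over all genes). Il2ra was higher by 7.59 (SE 0.40) and Irf4 by 4.25 (SE 0.38), or 4.96 without naive replicate 2, whereas Ifngr2, a chain of the interferon gamma receptor, was lower by -4.27 (SE 0.35).

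From day 4 to day 14, 8 of the 30 inducers and restrainers were higher and 5 lower (7.17% and 4.91% of all genes), with a median log2 fold change of 0.17 against -0.0039 over all genes. Id2, an inhibitor of E proteins found in effector and resident T cells, rose from 51.6 ± 1.79 to 217 ± 37.9 CPM (edgeR log2 fold change 2.07 ± 0.23 SE, adjusted p = 0.000128). Il12rb1, the shared chain of the interleukin 12 and 23 receptors, rose from 7.13 ± 3.48 to 29.9 ± 3.09 CPM (edgeR log2 fold change 2.06 ± 0.38 SE, adjusted p = 0.00421). At day 14 versus effector cells 11 were higher and 10 lower (32.6% and 28.4% of all genes, median 0.046 against 0.062 over all genes). Nr4a1, an early gene of T cell receptor signalling, was higher by 6.20 (SE 0.29), Id3, the counterpart of Id2 in memory precursors, was lower by -5.39 (SE 0.32) and Tcf7 by -4.84 (SE 0.37), or -5.43 without day 14 replicate 3.

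Of 24 genes known as targets of T-bet and Eomes, 22 passed the filter on low counts. The filter keeps a gene that is high in 1 group alone. Target genes near 0 counts in naive cells, such as Gzmk, passed it through other groups and could only be called higher than naive. Among the 22 genes, 11 were higher in effector than in naive cells and 1 was lower (14.6% and 10.4% of all genes). Their median log2 fold change was 2.6 against 0.015 over all genes. Fasl, the ligand of the death receptor Fas, rose from 0.155 ± 0.0824 to 9.55 ± 5.10 CPM (edgeR log2 fold change 5.87 ± 0.70 SE, adjusted p = 0.00022), with a value of 7.07 in counts of 1 strand. The granzyme genes Gzmk and Gzmb, for proteases of cytotoxic granules, were carried by few reads or by single libraries. Gzmk had 106 counts in effector and 1 in naive libraries, a 108-fold ratio with a 95% counting interval from 19.0 to 4304, and its call was lost without any 1 of the naive libraries (edgeR adjusted p = 0.0922, 0.0725 and 0.0714). Gzmb averaged 77.4 ± 97.3 against 1.09 ± 0.409 CPM (edgeR log2 fold change 6.12 ± 1.24 SE, adjusted p = 0.00828), 4.28 without effector replicate 2, and was not called by limma-voom (adjusted p = 0.0782) or by edgeR on the compared groups alone (adjusted p = 0.0617), with 0.00187 to 0.0782 over the alternatives.

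Macrophage and NK marker sums, given above, were higher in tumour than in naive libraries, and their part in the levels of these target genes was not tested. At day 4 versus naive cells 18 of 22 were higher and 2 lower, where 33.4% of all genes were higher and 28.8% lower. The median log2 fold change of the 22 was 5.22 against 0.029 over all genes. Both the count and the median include genes near 0 in naive cells, such as Gzmk and Ccl3, which could only be called higher. Gzmk had 1649 counts against 1, a 1426-fold ratio with a counting interval from 256 to 56376, and Ccl3, a chemokine of activated T cells, 1809 against 3, a 522-fold ratio with an interval from 178 to 2532. Xcl1, a chemokine for cross-presenting dendritic cells, rose from 0.577 ± 0.410 to 350 ± 26.8 CPM (edgeR log2 fold change 9.20 ± 0.64 SE, adjusted p = 2.04e-06), with 10.28 in counts of 1 strand and 9.94 without naive replicate 1. At day 14 versus effector cells 17 were higher and 4 lower, where 32.6% and 28.4% of all genes were (median 3.98 against 0.062 over all genes). Ifng, the cytokine gene most closely tied to T-bet, rose from 0.243 ± 0.212 to 97.4 ± 23.8 CPM (edgeR log2 fold change 8.65 ± 0.42 SE, adjusted p = 1.8e-09), with values from 8.06 to 9.23 without effector replicate 1 or 3. Cx3cr1, a receptor of terminal effector cells, had 1696 counts against 1 (1340-fold, counting interval 240.1 to 52943), and Ccl3 rose by 7.89 (SE 0.58), or 8.61 without effector replicate 2.

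Between day 4 and day 14, 11 of the 22 target genes were higher and 0 lower by edgeR, where 7.17% of all genes were higher and 4.91% lower, with a median log2 fold change of 1.21 against -0.0039 over all genes. At an unadjusted p under 0.05 there were 13 higher and 1 lower, DESeq2 called 12 and 0, and limma-voom 13 and 1. Of all 16426 genes DESeq2 called 1389 higher and 1051 lower, and limma-voom 1337 and 998, both more than edgeR. The share of all genes at the unadjusted p was not counted. Ccl5, a chemokine stored in cytotoxic T cells, rose from 31.2 ± 10.2 to 481 ± 124 CPM (edgeR log2 fold change 3.94 ± 0.61 SE, adjusted p = 0.00388). Gzmk rose from 36.0 ± 8.24 to 238 ± 28.4 CPM (edgeR log2 fold change 2.72 ± 0.46 SE, adjusted p = 0.00525). Prf1, the pore-forming protein perforin, rose from 43.2 ± 9.06 to 230 ± 76.7 CPM (edgeR log2 fold change 2.41 ± 0.24 SE, adjusted p = 9.27e-05). Over the same step Eomes did not differ beyond its interval and Tbx21 was 1.68-fold higher without being called. Macrophages and NK cells express some of these genes. Macrophage marker sums overlapped between day 4 and day 14, and NK marker sums were lower at day 14. Of the 3 tested NK markers, Klrb1f averaged 25.6 CPM at day 4 and 10.0 CPM at day 14 (edgeR adjusted p = 0.105). Klre1 averaged 4.90 and 4.96 CPM and Fcer1g 1.74 and 3.71 CPM, and none of the 3 was called. The part of these cells in the rise of the target genes was not tested.

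Of 20 genes known to be repressed by BLIMP-1 or Hobit in lymphocytes, all were tested. In effector versus naive cells 3 were higher and 2 lower (14.6% and 10.4% of all genes), with a median log2 fold change of -0.12 against 0.015 over all genes. Ctla4, an inhibitory receptor, rose from 1.21 ± 0.434 to 296 ± 62.0 CPM (log2 fold change 7.93 ± 0.27 SE), against the direction of the list's name. Dusp6, a phosphatase of ERK kinases, fell by 1.62 on the log2 scale (SE 0.20), with -2.23 in counts of 1 strand. Cxcr5, a follicular homing receptor, averaged 30.3 ± 19.1 against 9.48 ± 4.74 CPM with overlapping libraries (edgeR log2 fold change 1.68 ± 0.49 SE, adjusted p = 0.0313), and 12 of 20 alternatives did not call it, 9 of them for lack of 1 library (range of adjusted p 0.00079 to 0.153). At day 4 versus naive cells 9 were higher and 9 lower, where 33.4% of all genes were higher and 28.8% lower, with a median of -0.22. Ctla4 rose by 8.51 (SE 0.27) and Fos, an immediate early gene, by 5.97 (SE 0.39), and Tnfrsf8, the activation receptor CD30, was at least 110-fold higher, with 381 counts against 0 over the naive libraries.

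From day 4 to day 14, the step at which Prdm1 rose, 10 of the 20 repressed genes were lower and 2 higher, where 4.91% of all genes were lower and 7.17% higher. Their median log2 fold change was -0.82 against -0.0039 over all genes. Spib, an ETS factor of B cells and plasmacytoid dendritic cells, fell from 13.6 ± 5.33 to 1.28 ± 0.202 CPM (edgeR log2 fold change -3.41 ± 0.45 SE, adjusted p = 0.000104). Ccr7, a chemokine receptor for homing to lymph nodes, fell from 568 ± 91.5 to 110 ± 35.5 CPM (edgeR log2 fold change -2.37 ± 0.24 SE, adjusted p = 0.000128). Bcl6, Tcf7 and Bach2, described above, belong to this list as well as to that of restrainers. At day 14 versus effector cells 10 were lower and 5 higher (28.4% and 32.6% of all genes, median -0.83). Fos was higher by 8.27 (SE 0.48), or 9.03 without effector replicate 1 and 9.88 in counts of 1 strand, and Tnfrsf8 by 5.46 (SE 0.68), or 7.88 without effector replicate 2.

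**Figure D5:**
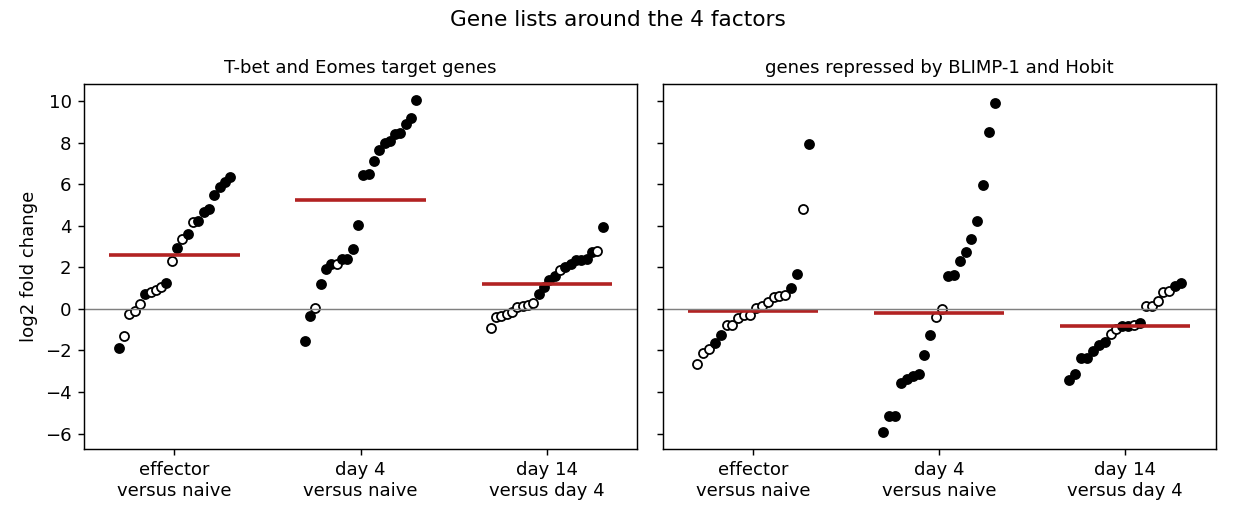
Log2 fold changes of the 22 tested target genes of T-bet and Eomes (left) and of the 20 genes repressed by BLIMP-1 or Hobit (right) in 3 comparisons. Each point is 1 gene, sorted by value, filled where the edgeR adjusted p was under 0.05, and red lines are medians. From day 4 to day 14 the medians are 1.21 on the left and -0.82 on the right.

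Hobit and BLIMP-1 act together in tissue residency, and 18 genes of that programme were read beside Zfp683. Of these, 7 were higher and 5 lower in effector than in naive cells (14.6% and 10.4% of all genes, median log2 fold change 0.84 against 0.015 over all genes). Qpct, a glutaminyl cyclase, had 122 counts in naive and 3 in effector libraries, a 39.9-fold ratio with a counting interval from 13.3 to 196 (edgeR log2 fold change -5.18, and -6.01 without effector replicate 1). Itga1, the collagen-binding integrin CD49a, had 145 counts in effector and 2 in naive libraries (73.8-fold, counting interval 20.1 to 615) and was not called by limma-voom (adjusted p = 0.0770). Cdh1, E-cadherin, averaged 3.70 ± 4.86 against 0.248 ± 0.363 CPM with overlapping libraries and was called (edgeR adjusted p = 0.0404), but 13 of 20 alternatives did not call it (range of adjusted p 0.00758 to 0.153), with log2 fold changes of 3.81 in all libraries, 1.83 once effector replicate 2 was left out and 6.26 once naive replicate 1 was. At day 4 versus naive cells 10 were higher and 2 lower (33.4% and 28.8% of all genes, median 1.64), and Litaf, an endosomal regulator, rose from 1.27 ± 0.501 to 134 ± 7.11 CPM (log2 fold change 6.71 ± 0.57 SE).

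Over the step from day 4 to day 14 the residency list had 4 genes higher and 2 lower (7.17% and 4.91% of all genes), with a median of 0.19. Cxcr6, the chemokine receptor of resident T cells, rose from 60.1 ± 28.7 to 486 ± 84.5 CPM (edgeR log2 fold change 3.02 ± 0.35 SE, adjusted p = 0.000634). Rgs1, a brake on chemokine receptor signalling, rose from 104 ± 12.3 to 448 ± 63.0 CPM (log2 fold change 2.11 ± 0.19 SE), and Chn2, a chimaerin, by 1.44 (SE 0.29). At day 14 versus effector cells 11 were higher and 4 lower (32.6% and 28.4% of all genes, median 1.74), with Rgs2 higher by 7.03 (SE 0.26), Chn2 by 7.72 (SE 0.47) and Litaf by 6.71 (SE 0.54). Without effector replicate 2 the values were 9.42 for Chn2 and 7.99 for Litaf. Itgae went the other way, from 382 ± 243 CPM in effector cells to 8.78 ± 3.03 CPM at day 14 (log2 fold change -5.45 ± 0.64 SE). It was also lower at day 4 than in naive cells (-3.77 ± 0.60 SE). Cd69 was not called against naive cells at day 4 (-0.15) or day 14 (-0.19), and was 1.80 above effector cells at day 14 (SE 0.24). The changes from day 4 to day 14 ran beside a Zfp683 level that was not called different between these groups.

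The partners and corepressors through which these factors act were a list of 20, all tested. In effector versus naive cells 5 were higher and 3 lower (14.6% and 10.4% of all genes, median log2 fold change 0.085), and at day 4 versus naive cells 8 and 5 (33.4% and 28.8%, median 0.023). Between day 4 and day 14 the counts were 2 and 2 (7.17% and 4.91% of all genes, median -0.060), and at day 14 versus effector cells 7 and 4 (32.6% and 28.4%, median 0.072). Ehmt2, the H3K9 methyltransferase G9a recruited by BLIMP-1, averaged 51.4 ± 1.95 CPM in naive and 88.1 ± 6.03 in effector libraries (log2 fold change 0.78 ± 0.09 SE), and rose again from 47.4 ± 2.31 at day 4 to 78.3 ± 2.04 CPM at day 14 (edgeR log2 fold change 0.72 ± 0.09 SE, adjusted p = 6.73e-05). Ezh2, the Polycomb H3K27 methyltransferase, rose from naive cells by 0.87 in effector (SE 0.11) and by 2.29 in day 4 cells (SE 0.12).

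Zeb2, a repressor that works downstream of T-bet in terminal effector cells, rose from 1.22 ± 0.208 CPM in naive to 106 ± 8.39 CPM in day 4 cells (log2 fold change 6.42 ± 0.32 SE), and was 5.27 above effector cells at day 14 (SE 0.30). Runx3, the CD8 lineage factor that works with T-box factors, rose from 133 ± 30.5 at day 4 to 301 ± 27.0 CPM at day 14 (log2 fold change 1.17 ± 0.14 SE). Kdm6b, an H3K27 demethylase known to bind T-box factors, was higher by 2.23 (SE 0.19) at day 14 than in effector cells, and Setd7, a lysine methyltransferase, was lower by -1.83 (SE 0.12).

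Most relatives of the members did not pass the filter on low counts. Of 15 other T-box genes, 2 passed the filter: Mga, a Max partner with a T-box domain that many cells express, at 182 to 337 CPM as group means, and Tbx6. Tbx6 averaged 13.9 ± 1.44 CPM in naive, 37.0 ± 4.27 in effector, 2.19 ± 0.758 at day 4 and 2.39 ± 1.19 at day 14 (effector versus naive edgeR log2 fold change 1.41 ± 0.27 SE, adjusted p = 0.00117). Of 14 other PRDM genes 9 passed the filter, with Prdm2 the most abundant at 112 to 209 CPM by library. At day 4 versus naive cells 4 of the 9 were higher and 5 lower (33.4% and 28.8% of all genes). Between day 4 and day 14, where 7.17% of all genes were higher and 4.91% lower, 0 of the 9 were called by edgeR in either direction, as by DESeq2, by limma-voom and at an unadjusted p under 0.05 by edgeR.

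The genes whose pattern over the 12 libraries was most like that of each member were found among 8202 protein-coding genes, by the root mean square difference of centred log2 CPM. For Tbx21 these were Il10ra (0.35), a chain of the interleukin 10 receptor, Runx2 (0.40), a Runt factor, and Cyfip1 (0.43), a regulator of actin, against a median of 1.63 over all genes compared. For Eomes they were Ppa1 (0.27), a pyrophosphatase, Tuba1b (0.34), a tubulin, and Zgrf1 (0.35), a helicase, against 1.35. For Prdm1 they were Adam8 (0.86), a metalloprotease, Lrrk1 (0.87), a kinase, and Id2 (1.05), against 2.67. For Zfp683 they were Cd69 (0.63), an early activation and residency receptor, Fmnl3 (0.63), a formin, and Gtf2ird1 (0.64), a transcription factor, against 1.22.

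Il10ra followed Tbx21 from 19.7 CPM in naive over 78.2 in effector and 163 at day 4 to 356 CPM at day 14 as group means. Ppa1, at 27.9, 12.7, 81.0 and 71.6 CPM in the same order, had the low effector value of Eomes. Lrrk1, at 0.614, 6.35, 19.7 and 81.8 CPM, climbed with Prdm1. The nearest genes to Prdm1 were farther from it than those of the other members, but so was the median over all genes (2.67 against 1.22 to 1.63). The distance grows with a gene's range, which was widest for Prdm1. Cd69, at 76.3, 19.2, 68.5 and 66.8 CPM, had the low effector value of Zfp683. The 12 libraries share 4 group means, so likeness over them is largely likeness over 4 values.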

How the data were processed

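Poly(A) RNA of 12 libraries was made into amplified cDNA and tagmented, per the labels' protocols. The values are counts of reads per gene, as the authors deposited them, from fastp 0.19.6 and STAR 2.6.1b on GRCm38 per the submitters' processing notes. How reads were assigned to genes, and the annotation release, is not given in the sources used here. The unstranded column was used, because 49.8% to 49.9% of stranded counts fell on 1 strand. Reads outside genes (20.7% to 30.2% of a table), ambiguous (3.22% to 3.81%), multimapping (5.90% to 7.29%) and unmapped (4.90% to 5.52%) were left out. The share outside genes was 30.2%, 28.6% and 25.8% in the naive libraries and 20.7% to 25.1% in the libraries of the other groups. The part of this difference in the comparisons with naive cells was not tested. Of 55401 identifiers 55141 matched GENCODE M21.

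After filterByExpr, 16426 genes were left, all 4 members among them. The filter keeps a gene that is high in 1 group alone. In every list, a gene near 0 counts in 1 of 2 compared groups could therefore be called in 1 direction only. The 16426 genes were scaled with TMM and fitted in edgeR 4.0.16 (R 4.3.3) as 1 quasi-likelihood model of 12 libraries, with Benjamini-Hochberg adjustment over these genes. Ratios against 1 to 3 counts carry 95% counting intervals, and a group at 0 was set to 3 counts over the group. Both cover counting error only. Alternatives were DESeq2 1.42.0, limma-voom (limma 3.58.1), total counts, RLE size factors, no filter, a replicate block, counts of 1 strand, the compared groups alone and each library left out. In data simulated for day 14 versus day 4, 41.3% of 196 genes changed 2-fold (15825 tested) and 73.1% of 193 changed 4-fold (15802 tested) were recovered.

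The members and lists were chosen with earlier results of these data known, and some genes belong to several lists. Genes named are the members, the 3 genes most like each, Bcl6, Tcf7 and Bach2, up to 3 called genes with the highest absolute log2 fold change per function list in 4 of the 6 comparisons, the most abundant gene of each of 8 marker lists, and tested relatives. Some genes that this rule names are not reported here. Ncr1, Klre1, Fcer1g, Sdc1, Cd68, Cd4, Col1a1, Col1a2, Col3a1, Pdgfrb, Itgae, H2-Ab1, Xcr1, Flt3, Itgax and Ccl22 were added after their values were seen.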

Additional observations from a re-analysis of the deposited data

How the results depend on the processing

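The comparisons of members that the report gives with no lost or gained call kept their side of the threshold under all 20 alternatives. Values below are log2 fold changes. For Eomes at day 14 versus day 4, near 0 throughout, the value was -0.024 with total counts, -0.0056 with RLE size factors, -0.0056 with DESeq2, -0.0047 with no filter, -0.035 with counts of 1 strand, -0.00038 with the compared groups alone and -0.19 to 0.12 with a library left out. For Zfp683 at day 14 versus naive it was -0.034 with total counts, -0.085 with limma-voom and -0.29 to 0.38 with a library left out. Calls were gained for Prdm1, effector versus naive, with DESeq2 (2.29) and the compared groups alone (2.25), and for Tbx21, day 14 versus day 4, with DESeq2 (0.74), limma-voom (0.75), no filter (0.74) and the compared groups alone (0.74). Calls were lost for Eomes (-1.17) and Zfp683 (-2.20), effector versus naive, with no filter, and for Tbx21, day 4 versus effector, with counts of 1 strand (0.90). The cause was not tested.

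With a library left out the value ran from -1.33 to -0.80 for Eomes, 1.94 to 3.30 for Prdm1 and -2.58 to -1.86 for Zfp683 in effector versus naive cells, and from -0.80 to 0.29 for Zfp683 in day 4 versus naive cells. It ran from 0.67 to 1.12 for Tbx21 and 0.48 to 1.68 for Prdm1 in day 4 versus effector cells, and from 0.59 to 0.89 for Tbx21 and -0.22 to 0.86 for Zfp683 in day 14 versus day 4 cells. The log2 ratio of Eomes to Tbx21 differed by -2.89 between day 14 and naive cells with counts of 1 strand, against -2.39.

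Of the 20 genes repressed by BLIMP-1 or Hobit, 5 were called in effector versus naive cells, against 8 with DESeq2, 10 with limma-voom, 10 with no filter and 8 with the compared groups alone. Of all 16426 genes DESeq2 called 2511 higher and 2043 lower there, and limma-voom 2287 and 1761. With no filter 2306 and 1945 of 33120 genes were called, and with the compared groups alone 1935 and 1891 of 13776. Limma-voom called 10 residency genes between day 4 and day 14, against 6, and 1337 of all genes higher and 998 lower, against 1178 and 806. With a library left out 5 to 10 partners and corepressors were called in effector versus naive cells, against 8, with 5 reached without naive replicate 3. That fit called 2016 genes higher and 1399 lower of 17203. Over all genes, edgeR called 1178 higher and 806 lower from day 4 to day 14, but 784 and 548 without day 4 replicate 1, 783 and 564 without day 4 replicate 2, and 750 and 533 without day 14 replicate 2. In effector versus naive cells it called 2395 higher and 1703 lower with TMM and 1544 and 2508 with total counts.

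Libraries with the same replicate number did not deviate together: over 18 pairs the correlation ran from -0.088 to 0.102, against -0.077 to 0.088 for other pairs, and 3 of 12 libraries correlated best with their own number. With the replicate block Eomes at day 14 versus day 4 was -0.0085 and Zfp683 at day 14 versus naive -0.026, no member call changed, and 1152 genes were higher and 779 lower from day 4 to day 14.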
